A study of Mus musculus with 70 samples.

Results

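Apoe and 8 further genes of lipoprotein lipid handling were followed through every library of a mouse microglia series. The members were Apoe, Apoc1, Lpl, Lrp1, Abca1, Abcg1, Nr1h3, Soat1 and Plin2, found by gene symbol in the deposited expression table, and they are 9 of its 43346 genes. They were listed for their known roles and not by a threshold on these values. Apoe had the highest level of the 9 in every pulldown library. Its mean ran from 8.93 ± 4.73 RPKM (SD, n = 3) in sorted cells of saline mice to 202 ± 25.6 RPKM (n = 4) in ribosome pulldowns of females aged 24 months. RPKM is reads per kilobase of gene model per 1e6 reads. Lpl was higher in the same contrasts of ageing to 24 months and of both disease models, by a smaller ratio than Apoe except in the amyloid model, while the Abca1 and Soat1 differences there stayed under 2-fold.

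ApoE is the main lipid carrier of the brain: it packs cholesterol and phospholipid into particles that cells take up through lipoprotein receptors, LRP1 among them, and astrocytes are its main source in the healthy brain. Cells load such particles by exporting sterol and phospholipid through the transporters ABCA1 and ABCG1, whose genes, like Apoe itself, are classic targets of the oxysterol sensors called liver X receptors, of which Nr1h3 encodes the alpha form. Lipoprotein lipase (Lpl) splits triglyceride in lipoproteins, apolipoprotein C1 (Apoc1) rides on the particles and inhibits lipases, SOAT1 esterifies spare cholesterol, and perilipin 2 (Plin2) coats the droplets in which esters and triglyceride are stored.

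RNA of the forebrain was sequenced in 70 libraries of 17 groups. Mice carried 1 copy each of Cx3cr1CreERT2-IRES-eYFP and Rpl22HA, a combination called RiboTag, in which tamoxifen (100 µg/g on 3 consecutive days) turns on Cre from the Cx3cr1 locus and so an HA-tagged ribosomal protein in cells that express Cx3cr1, microglia and other macrophages of the brain included. Tagged ribosomes with their RNA were pulled down from tissue lysed in the presence of cycloheximide, without dissociating the cells first. Sorted cells came instead from a 20 min collagenase digestion, a Percoll step and a gate on 7AAD-, CD11b+, CD45 low to intermediate cells. The LPS study held saline pulldowns (n = 4), LPS pulldowns (n = 3), sorted cells of saline (n = 3) and of LPS mice (n = 3), and total bulk input (n = 4) with the title numbers of the saline pulldowns, with LPS, a bacterial endotoxin, given intraperitoneally 24 h before. The Poly(I:C) study used pulldowns 24 h after that double-stranded RNA mimic (n = 3) or saline (n = 3). Amyloid was studied in APP/PS1 mice crossed to RiboTag (n = 5) against RiboTag controls (n = 5), and tau in RiboTag mice given an rAAV1 vector with TauP301L (n = 5) or GFP (n = 5), at 9 to 10 months in both. Ageing pulldowns came from females of 3 months (n = 5), 12 months (n = 5) or 24 months (n = 4), with males of the same ages (n = 5, 4 and 4). Each library was taken as 1 animal, although input and saline pulldowns of the same title number may come from the same mice. The labels leave out the sex of the mice beyond the ageing study and the ages in the LPS and Poly(I:C) studies.

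The upstream sequences of Apoe and Abca1, both liver X receptor targets whose values are followed most closely here, are shown for reference. Each gives the 250 bases before the annotated start of the gene from RefSeq on GRCm38.p6, minus strand, 5′ to 3′, at chr7:19699189-19699438 for Apoe and chr4:53159896-53160145 for Abca1. Capitals in the second sequence mark a loose repeat of a nuclear receptor motif that is described after them.
Apoe: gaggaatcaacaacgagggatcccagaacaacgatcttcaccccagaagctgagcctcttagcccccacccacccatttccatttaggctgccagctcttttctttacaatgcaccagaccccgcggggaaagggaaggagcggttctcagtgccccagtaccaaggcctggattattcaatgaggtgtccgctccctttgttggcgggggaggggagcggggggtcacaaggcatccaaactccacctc
Abca1: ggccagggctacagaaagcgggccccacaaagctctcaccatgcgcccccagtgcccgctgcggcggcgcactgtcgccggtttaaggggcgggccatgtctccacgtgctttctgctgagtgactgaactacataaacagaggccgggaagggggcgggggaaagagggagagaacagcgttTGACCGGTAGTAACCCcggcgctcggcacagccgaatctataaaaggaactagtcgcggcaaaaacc
The motif searched was a direct repeat of AGGTCA with 4 bases between the copies, on either strand. With at most 1 mismatch in each copy it occurred in 0 of the 6 members with an entry in the promoter table (Apoe, Abca1, Lrp1, Soat1, Nr1h3 and Plin2) and in 487 of all 32851 entries, or 1.48%. A looser search, made after the sequences had been seen, allowed 2 mismatches in 1 of the copies. It matched Abca1, on the reverse strand from 67 to 52 bases before the start, and none of the other 5, against 15.8% of all entries. Abca1 also had TATAA in its last 50 bases, as did 4.93% of all entries, and it held 20 CpG pairs at 61.6% GC. Apoe held 8 CpG pairs at 57.2% GC, where the median entry had 6 at 52.4%. A match or its absence in these windows says nothing of whether a factor binds. Apoe (ENSMUSG00000002985) spans positions 19696109 to 19699166 of chromosome 7 in the deposited table, with Apoc1 3450 bases from it, and Abca1 (ENSMUSG00000015243) spans 53030787 to 53159895 of chromosome 4.

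Libraries held 20.5 to 47.2 M reads (M, 1e6) in genes. Summed over 10 microglia markers fixed as a list (P2ry12, Tmem119, Cx3cr1 and others), levels were 19.9 to 23.5 RPKM in input, 210 to 1683 RPKM in pulldowns and 2230 to 3010 RPKM in sorted cells, so microglial RNA was enriched in both isolations. Saline pulldowns 3 and 4 of the LPS study stood apart, with 550 and 607 RPKM against 1421 and 1683 RPKM in the other 2. Pulldowns still held astrocyte markers (62.6 to 150 RPKM over 10 genes, against 176 to 206 RPKM in input), while sorted cells held little of them (2.62 to 10.2 RPKM). Sorted cells held 10 markers of neutrophils and monocytes at 5380 to 48100 RPKM, which pulldowns held at 24.1 RPKM or less. In such bulk libraries fewer cells of a type and less RNA per cell cannot be told apart.

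Across the 17 groups, Apoe was highest in 24-month females at 202 RPKM, followed by APP/PS1 at 121 ± 22 RPKM (n = 5), 24-month males at 101 ± 19 RPKM (n = 4), TauP301L at 88.2 ± 9.34 RPKM (n = 5) and the APP/PS1 controls at 63.5 ± 3.15 RPKM (n = 5). Then came 12-month females at 46.5 ± 2.47 RPKM, LPS pulldowns at 46.3 ± 7.05 RPKM, 12-month males at 45 ± 4.41 RPKM, saline pulldowns at 38.6 ± 19.9 RPKM, 3-month females at 33.1 ± 3.94 RPKM and 3-month males at 27.5 ± 3.33 RPKM. The lowest were the GFP vector at 24 ± 5.92 RPKM, sorted cells after LPS at 20.7 ± 11 RPKM, input at 19 ± 4.23 RPKM, both groups of the Poly(I:C) study at 14 ± 0.921 and 13.7 ± 1.8 RPKM, and sorted cells after saline. Neighbours in this order had separate ranges at 3 places, between 24-month females and APP/PS1, between TauP301L and the APP/PS1 controls, and between those controls and 12-month females. All other neighbours overlapped. Control groups of different studies thus differed, from 14 RPKM to 63.5 RPKM in pulldowns, so each comparison below stays within its own study.

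**Figure D1:**
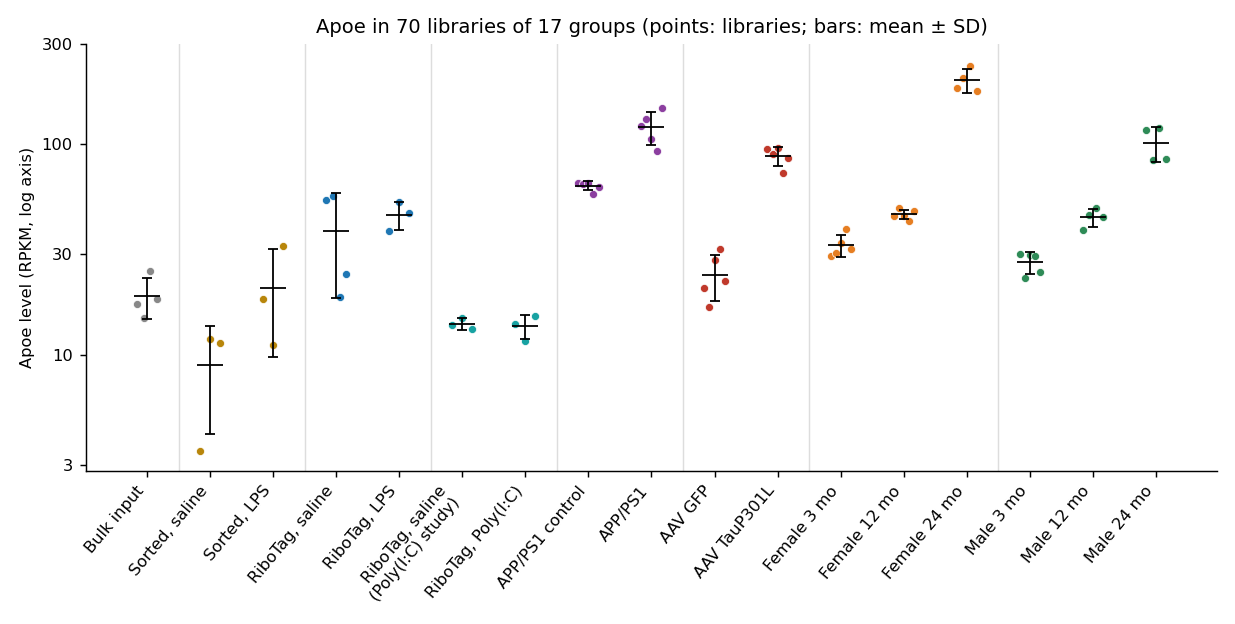
Apoe level in RPKM on a log axis for each of the 70 libraries (points), by group, with bars for the group mean ± SD. The 24-month females, the APP/PS1 and TauP301L groups and the 24-month males sit above their own controls without overlap.

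The other members differed in level and in how tightly replicates held together. Lpl means ran from 0.88 ± 0.0842 RPKM in 3-month males to 5.96 ± 3.12 RPKM in sorted cells after LPS. Abca1 means ran from 1.56 ± 0.141 RPKM in input through 2.87 to 6.54 RPKM in pulldowns to 21.7 ± 5.09 RPKM in sorted saline cells. Within the 14 pulldown groups the median coefficient of variation was 12.4% for Apoe, 11.5% for Lpl, 6.28% for Abca1, 7.9% for Abcg1, 6.62% for Lrp1, 5.84% for Soat1 and 13.4% for Plin2. The saline pulldowns of the LPS study set the highest value for Apoe, at 51.6%.

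Apoc1 was close to the detection limit, and Nr1h3 was low throughout and close to that limit in sorted cells. Apoc1 was at 0 in 12 of 70 libraries, all 6 sorted ones included, and never had more than 63 reads in a library, where 3 reads, the limit that a count of 0 allows, came to 0.0465 to 0.104 RPKM. Nr1h3 ranged from 0 to 0.626 RPKM with at most 139 reads. It was at 0 in 3 libraries, all of them sorted, and had at least 16 reads in every pulldown and input library. Each fit took genes whose mean over its libraries reached 1 RPKM, so Apoc1 and Nr1h3 entered none, and Plin2 entered those with libraries of the LPS study except pulldown against input. Of the 9 members, 6 or 7 were therefore tested in a comparison. Read assignment is uncertain where genes overlap: Soat1 shares 2563 bases with Gm37648, Lrp1 shares 1323 with its antisense gene Gm16217, and Nr1h3 shares 6873 with Gm13783, and no source used here gives the strand setting of the counting.

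Saline pulldown was first set against input, a contrast in which most genes were higher in pulldown. Input 1 had 20.7 M reads in genes out of the 78.2 M reads by which its RPKM was scaled. Saline pulldown 1 had 31.5 M out of 76.2 M. A higher RPKM in pulldown therefore does not by itself show that a member's RNA was enriched with the tagged ribosomes. Apoe, the carrier, was at 54.4, 57, 18.9 and 24.1 RPKM in saline pulldowns 1 to 4 and at 17.5, 15, 24.9 and 18.4 RPKM in input. Pulldowns 1 and 2 stood above every input library, and pulldowns 3 and 4, those with the fewest microglia markers, did not. The difference in log2(RPKM + 1) was 0.86 ± 0.35 (SE) and did not pass (limma, adjusted p = 0.0535). Without saline pulldown 3 it passed (1.14, adjusted p = 0.011), as it did without 4 (1.02, adjusted p = 0.0335) or without both (1.53, adjusted p = 6.82e-05). All other differences below are on this log2 scale, which understates the change of low genes, unless ratios of means are given.

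Of the 6 tested members Abca1 differed most. It was at 5.78, 6.18, 3.82 and 3.39 RPKM in pulldowns and at 1.41, 1.61, 1.73 and 1.49 RPKM in input, with no overlap, a ratio of means of 3.08 and a difference of 1.15 ± 0.16 (limma, adjusted p = 0.000252). Abcg1, which passes sterol on to lipoprotein particles, was higher by 0.58 ± 0.17 (adjusted p = 0.0114). The receptor gene Lrp1 was higher by 0.76 ± 0.15 (adjusted p = 0.00187) and Soat1 by 0.39 ± 0.10 (adjusted p = 0.00735). None of these members overlapped between groups, but the share of all genes without overlap was not counted. Lpl, at 0.796 to 1.8 RPKM against 0.939 to 1.24 RPKM, did not pass. With the title number as a replicate block, which holds if these libraries share mice, the same 4 members were called at adjusted p = 0.00183 (Abca1), 0.0323 (Abcg1), 0.012 (Lrp1) and 0.0196 (Soat1), and Apoe was at adjusted p = 0.0939. So 4 of 6 tested members were called, where 67.3% of all 12780 genes tested were. The median gene differed by 0.41, and median-of-ratios scaling, which sets that median near 0, moved it by -0.39. Under that scaling Abca1 alone of the 6 members remained called, and the split over all genes went from 7256 higher and 1346 lower to 3494 higher and 3471 lower.

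Sorted saline cells gave another order of the members. Apoe was at 3.48, 11.9 and 11.4 RPKM in sorted cells, below all 4 pulldowns, and was higher in pulldown by 1.99 ± 0.55 (limma, adjusted p = 0.021), a ratio of means of 4.32. Abca1 was at 26.5, 22.2 and 16.4 RPKM in sorted cells, above all 4 pulldowns, and was lower in pulldown by 1.98 on the log2 scale (SE 0.28, adjusted p = 0.000753). Markers of several cell types also differed here (limma). Higher in pulldown were 6 of 7 tested astrocyte markers, 10 of 10 of neurons and 7 of 9 of oligodendrocytes. So were 3 of 4 of endothelial and mural cells and 4 of 6 of perivascular macrophages, where 1 was lower. Lower in pulldown were 10 of 10 markers of neutrophils and monocytes and 9 of 10 of microglia. The part of these cell types in the Apoe difference was not tested.

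Lrp1, at 31.8, 27.7 and 25.9 RPKM in sorted cells and 8.45, 8.18, 5.15 and 7.16 RPKM in pulldowns, was also separate between the groups. It was lower in pulldown, with a difference of -1.85 ± 0.23 (limma, adjusted p = 0.000383). Soat1, the esterifying enzyme, was at 4.26, 5.67 and 12.8 RPKM against 2.29, 2.24, 1.64 and 1.54 RPKM, with a difference of -1.43 ± 0.34 (adjusted p = 0.0115). Abcg1 at -0.97 (adjusted p = 0.095), Lpl at -0.24 (adjusted p = 0.581) and Plin2 at -0.28 (adjusted p = 0.561) did not pass. That made 4 of 7 members against 43.1% of 13546 genes, and scaling moved the median gene by -0.23. The Apoe call was lost without saline pulldown 1 (adjusted p = 0.0585) or 2 (adjusted p = 0.0553) and with a weight for each isolation method (adjusted p = 0.104). The Soat1 call was lost without pulldowns 3 and 4 together (adjusted p = 0.155). The replicate block ended both calls, at adjusted p = 0.0758 for Apoe and 0.0841 for Soat1. Abcg1 was called without sorted saline library 1 (-1.41, adjusted p = 0.0101), with scaling (-1.25, adjusted p = 0.0224) and with voom (adjusted p = 0.0189).

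Apoe was higher at each later age in both sexes. Females had 29.6, 30.4, 34.2, 39.4 and 31.8 RPKM at 3 months, 45.8, 49.8, 45.4, 43.4 and 48 RPKM at 12 months, and 185, 206, 236 and 180 RPKM at 24 months. Males had 30.3, 23.1, 29.8, 29.5 and 24.8 RPKM at 3 months, 39.1, 46.1, 49.8 and 45 RPKM at 12 months, and 117, 84.5, 119 and 85.3 RPKM at 24 months. In each sex the 3 ages did not overlap, and every 24-month female lay above every 24-month male.

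From 3 to 12 months Apoe rose by 0.48 ± 0.10 in females (limma, adjusted p = 0.0123) and by 0.69 ± 0.11 in males (adjusted p = 0.00033). From 12 to 24 months it rose by 2.09 ± 0.11 in females (adjusted p = 1.34e-12) and by 1.14 ± 0.12 in males (adjusted p = 5.34e-07). Over the whole span it rose by 2.57 ± 0.11 in females, 6.1 times the mean at 3 months, with a 95% interval of 2.35 to 2.8, and by 1.83 ± 0.11 in males, 3.69 times. At 3 and 12 months the sexes did not differ past the test, with female minus male differences of 0.26 ± 0.10 (adjusted p = 0.317) and 0.05 (adjusted p = 0.921). At 24 months Apoe was higher in females by 1.00 (95% interval 0.76 to 1.23, adjusted p = 6.18e-06), 1.99 times the male mean. The test of the difference in ageing effect itself gave 0.74 ± 0.15 (unadjusted p = 6.93e-05) and an adjusted p of 0.0547. It was called with median-of-ratios scaling (adjusted p = 0.026) and with voom, limma's method for counts, on recovered reads (adjusted p = 0.00394). It was also called, at 0.70 to 0.82, without female 3-month library 1 or 4, female 24-month library 5, male 3-month library 2, or male 24-month library 1 or 4. Over all 27 libraries left out in turn, adjusted p ran up to 0.172 and the difference down to 0.66.

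**Figure D2:**
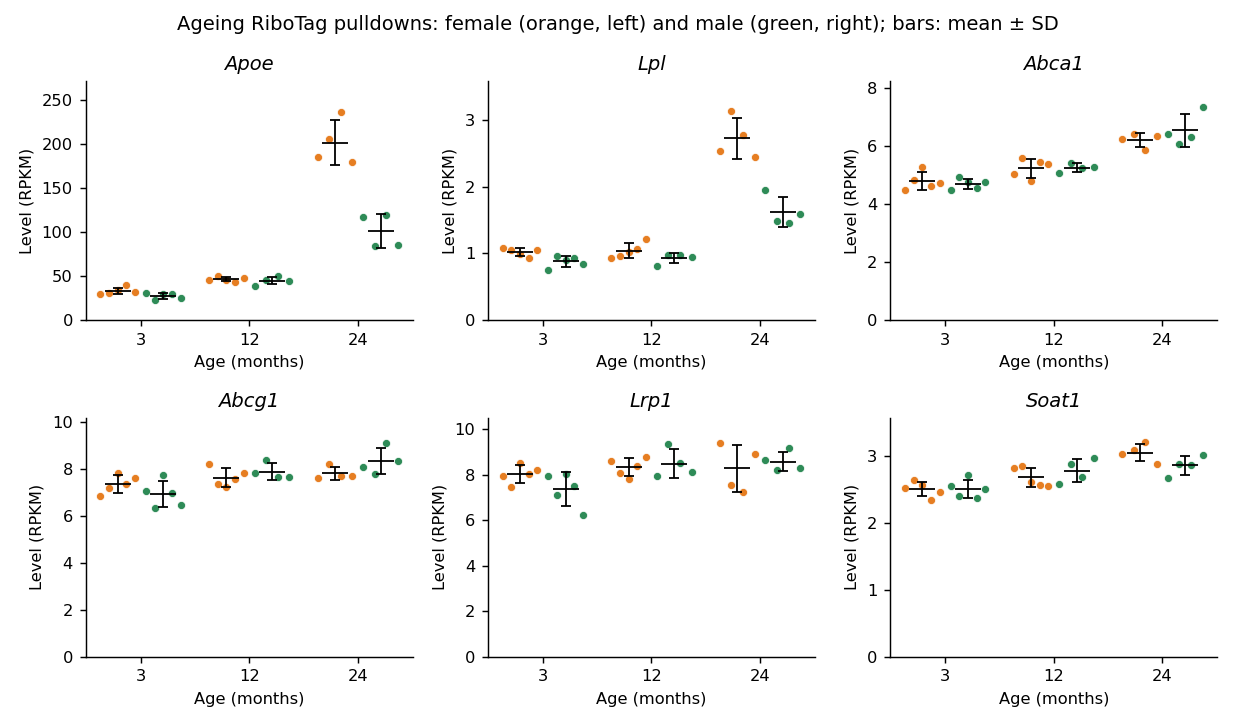
Levels in RPKM of members in the 27 ageing pulldowns by age in months, females in orange at left and males in green at right of each age. Points are libraries and bars the mean ± SD, and the steepest step is that of Apoe in females between 12 and 24 months.

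Lpl, the lipase, stood out at the oldest age. It was at 1.08, 1.06, 0.992, 0.927 and 1.05 RPKM in females of 3 months, at 0.933 to 1.21 RPKM at 12 months, and at 2.54, 3.14, 2.77 and 2.45 RPKM at 24 months. Males had 0.751 to 0.968 RPKM at 3 months, 0.812 to 0.975 RPKM at 12 months and 1.95, 1.49, 1.45 and 1.6 RPKM at 24 months, so that in each sex the oldest group lay clear of both younger ones, which overlapped. From 3 to 24 months Lpl rose by 0.88 ± 0.06 in females (2.67 times, limma, adjusted p = 3.74e-11) and by 0.48 ± 0.06 in males (1.84 times, adjusted p = 1.38e-06). It was higher in females than males at 24 months by 0.51 ± 0.06 (1.68 times, adjusted p = 1.46e-05). Its test of the difference in ageing effect gave 0.40 ± 0.08 and an adjusted p of 0.0512. It was called with scaling (adjusted p = 0.0396), with voom (adjusted p = 0.0319) and, at 0.40 to 0.46, without any of 7 single libraries (female 3-month 1, female 12-month 1 or 5, female 24-month 1 or 5, male 3-month 1, male 24-month 1). Over all 27 libraries left out in turn, adjusted p ran up to 0.131 and the difference down to 0.35.

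Abca1 rose by less. In females it was at 4.48, 4.85, 5.27, 4.62 and 4.73 RPKM at 3 months and at 6.26, 6.42, 5.87 and 6.35 RPKM at 24 months, a rise of 0.32 ± 0.05 (1.3 times, limma, adjusted p = 2.38e-05). In males it was at 4.5, 4.92, 4.78, 4.54 and 4.75 RPKM at 3 months and at 6.41, 6.08, 6.33 and 7.35 RPKM at 24 months, a rise of 0.40 ± 0.05 (1.39 times, adjusted p = 8.02e-07). The youngest and oldest groups were separate in each sex, while at 24 months females and males did not differ past the test (-0.06, adjusted p = 0.634).

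Soat1 rose in both sexes too. Females had 2.51, 2.63, 2.56, 2.35 and 2.46 RPKM at 3 months and 3.03, 3.08, 3.2 and 2.88 RPKM at 24 months, a rise of 0.21 ± 0.04 (limma, adjusted p = 0.000641), and in males the rise was 0.14 ± 0.04 (adjusted p = 0.0156), lost with scaling (adjusted p = 0.137) and without 24-month library 5 (adjusted p = 0.0614). Abcg1 and Lrp1 rose from 3 to 24 months in males by 0.24 ± 0.05 (adjusted p = 0.001) and 0.20 ± 0.07 (adjusted p = 0.0326). In females they were at 0.07 (adjusted p = 0.318) and 0.03 (adjusted p = 0.775), and the difference between the sexes did not pass for Abcg1 (-0.16, adjusted p = 0.342) or Lrp1 (-0.17, adjusted p = 0.486). The male Lrp1 call was lost with scaling (adjusted p = 0.111) and without 3-month library 2 (adjusted p = 0.0636) or 5 (adjusted p = 0.108) or 24-month library 1 (adjusted p = 0.067) or 4 (adjusted p = 0.112).

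In females 1 of 6 tested members was called from 3 to 12 months (2.94% of all 14198 genes tested in ageing), 4 from 12 to 24 months (5.44%) and 4 from 3 to 24 months (20.1%). The Soat1 call from 12 to 24 months (0.14 ± 0.04, adjusted p = 0.0452) was lost with scaling (adjusted p = 0.0725) and without any of 12 single libraries, which left adjusted p at up to 0.15. In males 2 were called from 3 to 12 months, Apoe and Abcg1 (13.9%), of which Abcg1 was lost with scaling (adjusted p = 0.155) and without 3-month library 2 or 5 or 12-month library 2 or 3 (adjusted p = 0.0501 to 0.118), 3 from 12 to 24 months (9.73%) and all 6 from 3 to 24 months (23.4%). Between the sexes 0 of 6 were called at 3 months (0.289%), 0 at 12 months (0.578%) and 2 at 24 months (0.817%), and 0 for the difference in ageing effect (0.0916%). Beside these 0 counts in limma, members at an unadjusted p under 0.05 numbered 1, 0 and 3, and voom called 0, 0 and 2. Every called member was higher at the later age or in females.

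Cell type markers moved with age as well. The 10 microglia markers summed to 357 to 451 RPKM in females of 3 months and 476 to 547 RPKM at 24 months, and to 339 to 421 and 517 to 557 RPKM in males, with 9 of 10 called higher in males and 3 of 10 in females. Oligodendrocyte markers were higher at 24 months for 8 of 10 in females (127 to 150 against 182 to 210 RPKM) and 3 of 10 in males (123 to 158 against 154 to 161 RPKM), where 1 was lower. Of 9 tested astrocyte markers, 3 were higher in females, and in males 1 was higher and 1 lower. Perivascular macrophage markers were higher for 3 of 7 tested in females (14.4 to 19.1 against 18.2 to 27.2 RPKM in sum) and 5 of 7 in males (12.6 to 16.8 against 19.5 to 22 RPKM). Neuron markers were lower for 1 of 10 in females (230 to 259 against 235 to 253 RPKM) and 5 of 10 in males (233 to 260 against 217 to 230 RPKM). The part of these other cell types in the members' values was not tested, beyond the astrocyte covariate. With the summed microglia markers as a covariate, an alternative added after the data had been seen, the Apoe rise from 3 to 24 months was 2.32 in females and 1.43 in males (adjusted p = 1.81e-05), but its rise from 3 to 12 months in males (0.40, adjusted p = 0.364) was no longer called. Nor were the male rises of Abcg1, Lrp1 and Soat1 from 3 to 24 months or the female rise of Soat1 (adjusted p = 0.0531).

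Without the filter on low values the storage and carrier genes of low level could be tested. Plin2 was at 0.373 to 0.567 RPKM in females of 3 months and at 0.802, 0.784, 0.697 and 0.723 RPKM at 24 months, with no overlap and a rise of 0.24 ± 0.06 (limma, adjusted p = 0.00687), and in males the rise was 0.22 ± 0.06 (adjusted p = 0.0126). Apoc1 was at 0.0606 to 0.227 RPKM in females of 3 months and at 0.683, 0.301, 0.437 and 0.37 RPKM at 24 months, a rise of 0.38 ± 0.09 (adjusted p = 0.00678). In males Apoc1 did not pass (0.19, adjusted p = 0.2).

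The amyloid and tau models were each compared with their own controls. Apoe was at 65.8, 64.9, 65.6, 58.2 and 63.1 RPKM in the APP/PS1 controls and at 123, 133, 106, 93 and 149 RPKM in APP/PS1, so that no library overlapped. It rose by 0.90 ± 0.11 (95% interval 0.67 to 1.13, limma, adjusted p = 0.00246), 1.9 times the control mean. With the GFP vector it was at 20.7, 16.9, 28.1, 31.7 and 22.5 RPKM and with TauP301L at 95.1, 89.8, 96.6, 73.2 and 86.2 RPKM, again without overlap. There it rose by 1.86 ± 0.15 (95% interval 1.54 to 2.18, adjusted p = 0.000113), 3.68 times the GFP mean.

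Lpl was at 1.37, 1.3, 1.22, 1.49 and 1.09 RPKM in the controls and at 4.41, 4.27, 3.49, 2.57 and 3.77 RPKM in APP/PS1, a rise of 1.02 ± 0.10 (2.85 times, limma, adjusted p = 0.000798). With GFP it was at 1.64, 1.84, 1.86, 2.05 and 1.83 RPKM and with TauP301L at 4.14, 3.95, 4.25, 3.05 and 3.34 RPKM, a rise of 0.73 ± 0.08 (2.03 times, adjusted p = 0.00116). The groups were separate in both models. Apoe and Lpl were the called members in each, 2 of 6, where 1.31% of 14431 genes were called for APP/PS1 and 1.25% of 12864 for TauP301L.

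Abca1 did not pass in either model, but its values differed between them. It was at 5.95, 5.63, 5.84, 6.38 and 5.61 RPKM in the controls against 5.27, 5.81, 5.82, 5.47 and 5.36 RPKM in APP/PS1, overlapping, at -0.07 (limma, adjusted p = 0.408). With GFP it was at 4.66, 4.48, 4.21, 5.35 and 4.49 RPKM against 6.03, 6.33, 6.75, 5.41 and 5.53 RPKM with TauP301L, without overlap, at 0.31 ± 0.07 (adjusted p = 0.0506). Soat1 was likewise separate with TauP301L, at 2.01 to 2.43 against 2.52 to 2.99 RPKM, and did not pass (0.23 ± 0.05, adjusted p = 0.063). Median-of-ratios scaling and voom each called 4 of 6 members for TauP301L, these 2 with Apoe and Lpl. So did leaving out GFP 5 (Abca1 adjusted p = 0.0186, Soat1 adjusted p = 0.0427), and leaving out TauP301L 4 called Abca1 (adjusted p = 0.0421).

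The amyloid effect minus the tau effect, each against its own controls, was tested directly. Apoe gave -0.96 ± 0.19 (limma, adjusted p = 0.0247), a larger rise with tau, and Abca1 gave -0.39 ± 0.08 (adjusted p = 0.0301). Lpl gave 0.29 ± 0.13 (adjusted p = 0.306) and Soat1 -0.17 (adjusted p = 0.241), neither of which passed. That made 2 of 6 members, where 0.847% of 13810 genes were called. The Apoe base differed between the control groups, 63.5 RPKM against 24 RPKM, and model, vector and study cannot be told apart in this test. The Apoe call was lost without APP/PS1 control 3 (adjusted p = 0.0506) or TauP301L 3 (adjusted p = 0.0561). The Abca1 call was lost without any of 8 single libraries (GFP 2 or 3, TauP301L 3, APP/PS1 1, 4 or 5, APP/PS1 control 3 or 4), at adjusted p from 0.0508 to 0.0634, and both were lost with no filter (adjusted p = 0.061 and 0.0582) and with the replicate block (adjusted p = 0.0702 and 0.122).

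Abcg1, at 8.83 to 9.83 RPKM in the controls and 7.93 to 9.75 RPKM in APP/PS1, and Lrp1, at 8.46 to 9.82 and 8.7 to 9.27 RPKM, overlapped and did not pass (-0.07 and 0.02). With tau they gave 0.02 and 0.07. Plin2 and Apoc1 were too low for the filtered fits. Plin2 was at 0.613 to 0.854 RPKM in the controls and 0.814 to 1.09 RPKM in APP/PS1, with means of 0.757 and 0.992 RPKM. It was at 0.611 to 0.788 RPKM with GFP and 0.669 to 1.07 RPKM with TauP301L, with means of 0.682 and 0.919 RPKM. The ranges overlapped in both models. Apoc1 was at 0.179 to 0.692 RPKM in the controls and 0.0537 to 0.359 RPKM in APP/PS1, also overlapping. Apoc1 was at 0, 0, 0.253, 0.362 and 0.0686 RPKM with GFP and at 0.969, 0.245, 1.46, 0.67 and 1.32 RPKM with TauP301L, where 4 of 5 libraries lay above every GFP library, and the unfiltered difference of 0.74 ± 0.18 did not pass (limma, adjusted p = 0.169).

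Marker lists were read in the same libraries. Microglia markers summed to 624 to 717 RPKM in controls and 611 to 735 RPKM in APP/PS1, and to 455 to 630 and 533 to 634 RPKM with GFP and TauP301L, with 0 of 10 called in either (limma). Of 9 tested astrocyte markers 1 was higher in each model, with sums of 122 to 139 against 127 to 141 RPKM and of 114 to 125 against 114 to 123 RPKM. With TauP301L 2 of 10 neuron markers were lower, at 211 to 243 RPKM in sum against 244 to 266 RPKM. With the microglia covariate Apoe rose by 0.86 for APP/PS1 (adjusted p = 0.00346) and 1.70 for TauP301L (adjusted p = 0.000112).

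**Figure D3:**
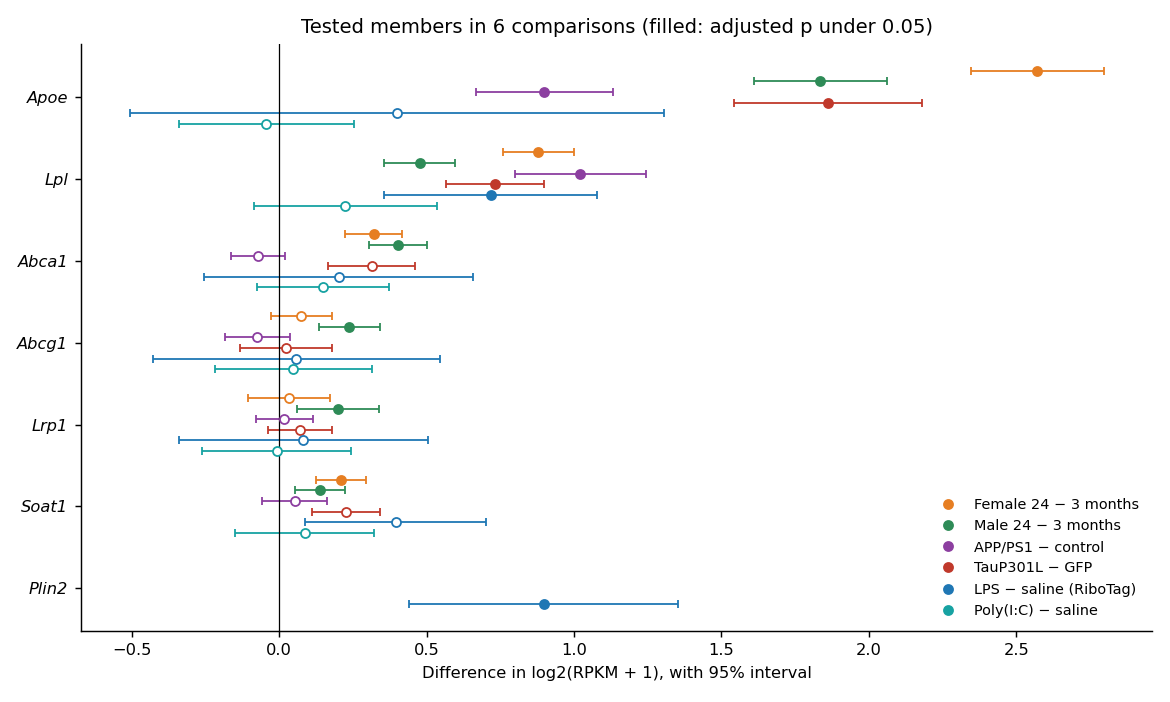
Differences in log2(RPKM + 1) with 95% intervals for the tested members in 6 comparisons, filled where the adjusted p was under 0.05. Apoe and Lpl lie furthest to the right for ageing, APP/PS1 and TauP301L, with Apoe at 2.57 in female and 1.83 in male ageing.

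Systemic inflammation gave another set. In pulldowns after LPS, Apoe was at 38.9, 53 and 47 RPKM, inside the saline range of 18.9 to 57 RPKM, and did not pass (0.40, 95% interval -0.51 to 1.31, limma, adjusted p = 0.586). Lpl was at 1.26, 1.8, 1.3 and 0.796 RPKM after saline and at 2.75, 2.32 and 3.14 RPKM after LPS, without overlap, a rise of 0.72 ± 0.16 (2.12 times, adjusted p = 0.021). Plin2, the droplet coat, was at 1.47, 1.31, 0.522 and 0.564 RPKM after saline and at 2.12, 2.53 and 3.14 RPKM after LPS, again without overlap, a rise of 0.90 ± 0.20 (2.69 times, adjusted p = 0.0219).

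Soat1 was separate, at 2.29, 2.24, 1.64 and 1.54 RPKM against 2.53, 2.76 and 3.22 RPKM, but did not pass (0.39 ± 0.13, limma, adjusted p = 0.0961). Abca1 (0.20, adjusted p = 0.585), Abcg1 (0.06, adjusted p = 0.905) and Lrp1 (0.08, adjusted p = 0.84) did not pass. The count was 2 of 7 members against 12.3% of 13989 genes, and scaling moved the median gene by -0.12. Without saline pulldowns 3 and 4, left out together after the data had been seen, Lpl gave 0.56 (adjusted p = 0.0813), Plin2 0.58 (adjusted p = 0.0686) and Apoe -0.27 (adjusted p = 0.459), so that no member was called. Both calls were also lost without LPS pulldown 3 (adjusted p = 0.0598 for Lpl and 0.0878 for Plin2), LPS pulldown 4 (0.104 and 0.11) or saline pulldown 3 (0.0563 and 0.0583), and the Lpl call without LPS pulldown 1 (0.0502). They were lost with no filter (0.0675 and 0.0758), the replicate block (0.0557 and 0.0583) and the fit shared with sorted cells (0.601 and 0.759). The markers of perivascular macrophages were higher after LPS for 3 of 8 genes, at 16.6 to 56.7 RPKM in sum after saline and 55 to 70.7 RPKM after LPS, and their part in these values was not tested.

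Sorted cells were noisier. After LPS, Apoe was at 18.4, 11.1 and 32.7 RPKM against 3.48, 11.9 and 11.4 RPKM, overlapping (1.15 ± 0.57, limma, adjusted p = 0.462), Lpl was at 2.37, 7.57 and 7.94 RPKM against 0.766, 3.07 and 1.63 RPKM (1.25 ± 0.62, adjusted p = 0.461), and Plin2 was at 6.96, 14.6 and 1.24 RPKM against 0.531, 2.84 and 1.17 RPKM (1.48 ± 0.77, adjusted p = 0.486). Lrp1 was lower without overlap, at 12.7, 17.4 and 24.4 RPKM against 31.8, 27.7 and 25.9 RPKM, and did not pass (-0.66 ± 0.38, adjusted p = 0.53). Of 7 members 0 were called, 0 at an unadjusted p under 0.05 and 0 by voom, where 0.627% of 11490 genes were called and scaling moved the median gene by -0.24. The markers of neutrophils and monocytes reached 12200 to 48100 RPKM in sorted cells after LPS and 5380 to 18000 RPKM after saline, and their part was not tested.

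The LPS effect in pulldowns minus that in sorted cells was called for 0 of 7 members (0.259% of 13908 genes, limma), for 0 at an unadjusted p under 0.05 and for 0 by voom. Its intervals were wide, such as -2.32 to 1.14 for Plin2, and Apoe gave -0.76 ± 0.74 (adjusted p = 0.811) and Lrp1 0.74 ± 0.36 (adjusted p = 0.595). A difference between the methods was thus not detectable with these replicates.

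**Figure D4:**
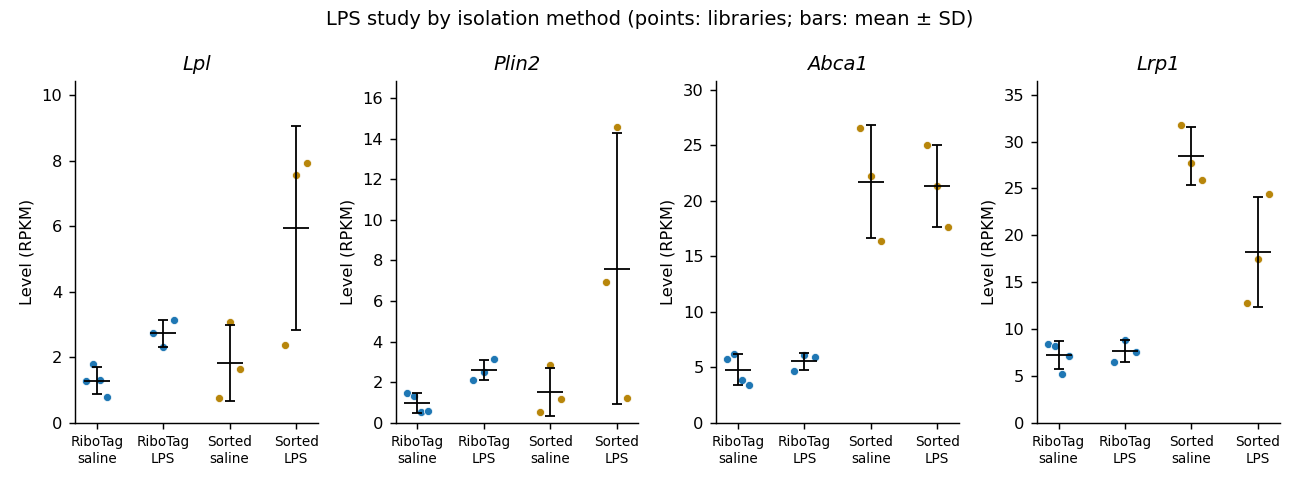
Levels in RPKM of Lpl, Plin2, Abca1 and Lrp1 in the LPS study by isolation method and treatment, with points for libraries and bars for the mean ± SD. Abca1 and Lrp1 sit higher in sorted cells than in pulldowns, and Lpl and Plin2 sit higher in LPS pulldowns than in saline pulldowns.

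After Poly(I:C), Apoe was at 14, 11.7 and 15.2 RPKM against 13.9, 15 and 13.2 RPKM after saline, overlapping, at -0.04 (95% interval -0.34 to 0.25, limma, adjusted p = 0.935). Lpl was at 1.49, 1.29 and 2.12 RPKM against 1.38, 1.13 and 1.21 RPKM (0.22 ± 0.13, adjusted p = 0.531), and Abca1 was at 3.21, 3.32 and 3.31 RPKM against 2.96, 3.13 and 2.52 RPKM, separate but not past the test (0.15, adjusted p = 0.581). Of 6 members 0 were called, 0 at an unadjusted p under 0.05 and 0 by voom, where 6.5% of 13505 genes were. Plin2 was too low for this filtered fit and is not among the 6. It was at 0.294 to 0.376 RPKM after saline and at 0.444 to 0.9 RPKM after Poly(I:C), without overlap. Its means were 0.346 and 0.63 RPKM. Microglia markers rose in the same libraries, from 210 to 219 RPKM in sum to 322 to 444 RPKM, with 6 of 10 called.

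LPS and Poly(I:C) effects in pulldowns were compared directly. Of 7 members 0 were called (0.194% of 13883 genes, limma), 0 by voom, and 2 had an unadjusted p under 0.05, Plin2 with 0.63 ± 0.26 (adjusted p = 0.512) and Lpl with 0.49 ± 0.22 (adjusted p = 0.573). Scaling moved the median gene by -0.11. Microglia markers had risen after Poly(I:C) for 6 of 10 genes and after LPS for 1 of 10, and with their sum as a covariate Apoe (0.84, adjusted p = 0.0136) and Plin2 (0.82, adjusted p = 0.0158) were called.

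Apoe was also expressed per 100 RPKM of the summed microglia markers, a ratio that depends on the markers' own level. It was 3.65 ± 0.293 (n = 4, 3.39 to 3.98) in saline pulldowns of the LPS study, whose Apoe levels alone spread from 18.9 to 57 RPKM, and 3.77 after LPS (3.56 to 4.04). It was 6.57 ± 0.461 in Poly(I:C) controls and 3.67 ± 0.264 after Poly(I:C), where the markers rose. It went from 9.46 to 17.4 with APP/PS1 and from 4.46 to 15.4 with TauP301L. In females it was 8.09, 10.8 and 40 at 3, 12 and 24 months, and in males 7.26, 9.25 and 18.9. Input, with whole tissue, was at 87.7 and sorted saline cells were at 0.3.

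**Figure D5:**
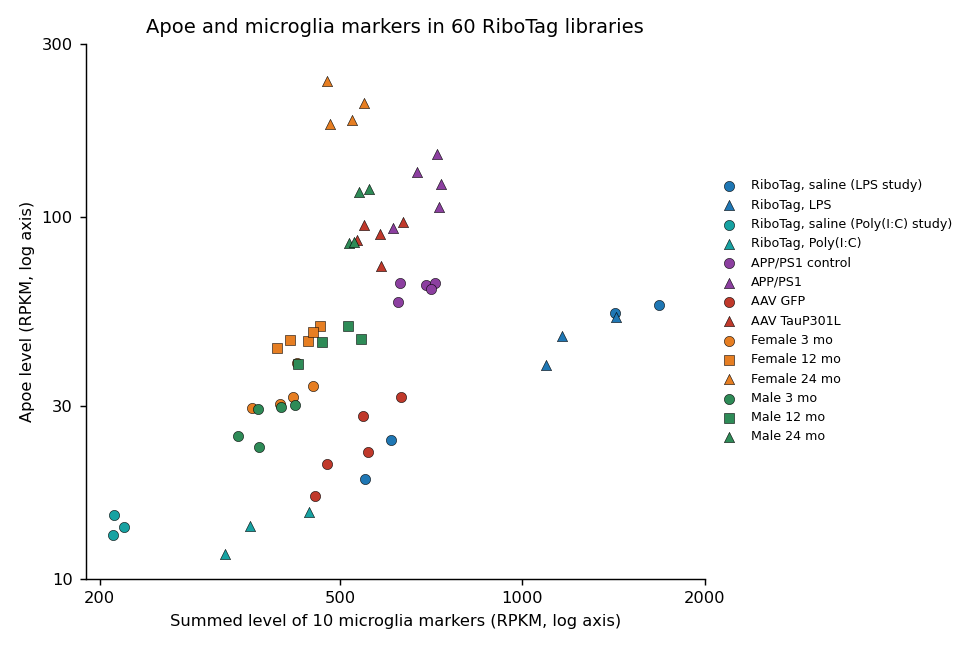
Apoe level against the summed level of 10 microglia markers, both in RPKM on log axes, for the 60 pulldown libraries coloured by group. The 4 saline pulldowns of the LPS study line up along a slope, while the APP/PS1 and TauP301L libraries lie above their controls at overlapping marker sums.

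Other genes followed Apoe more closely than its fellow members did. Pearson's r of log2(RPKM + 1) with Apoe was taken over the 60 pulldown libraries after each study's mean had been removed, among 14126 genes, and is a description, since the libraries share studies, depth and treatments. The highest values were 0.95 for Cd9, a tetraspanin, 0.94 for Lyz2, lysozyme, 0.94 for Clec7a, the beta-glucan receptor dectin-1, 0.93 for Axl, a receptor tyrosine kinase of apoptotic cell uptake, and 0.93 for Cd83. Next came a second identifier of Clec7a at 0.92, whose reads may be split between the 2 entries, Gpnmb at 0.92, the lysosomal protease gene Ctsd at 0.91, Spp1, which encodes osteopontin, at 0.91 and Fam46c at 0.90. Within the Poly(I:C) study, where Apoe hardly varied, Cd9 gave -0.07 and Lyz2 0.58.

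Among the members, r with Apoe was 0.82 for Lpl, with 35 genes (0.248%) higher, and 0.75 for Abca1, with 72 genes (0.51%) higher. It was 0.67 for Soat1, 0.60 for Apoc1, 0.52 for Plin2, 0.40 for Abcg1, 0.39 for Lrp1 and 0.23 for Nr1h3. The storage genes Soat1 and Plin2 went together at 0.82, and Soat1 and Abca1 at 0.75.

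Further genes of the pathway were taken from 7 lists with 65 genes: apolipoproteins and lipid transfer, lipoprotein receptors, sterol transporters, nuclear receptors, liver X receptor and SREBP targets, lipases and fatty acid handling, and ester and droplet genes. In female ageing from 3 to 24 months 16 of 47 tested were higher and 0 lower, 34% called where 20.1% of all genes were, with a median of 0.15 against 0.05 over all genes. In males 11 were higher and 1 lower, 25.5% called where 23.4% of all genes were, with a median of 0.09 against 0.04. Npc2, which moves cholesterol out of lysosomes, rose from 10.8 to 22.2 RPKM in females (0.97, limma, adjusted p = 6.99e-11) and by 0.95 in males. Trem2, a microglial receptor that binds lipids and apolipoproteins, rose from 4.56 to 9.44 RPKM in females (0.91, adjusted p = 1.82e-06) and by 0.97 in males, where the call was lost with the microglia covariate (adjusted p = 0.166). Pltp, which transfers phospholipid, rose by 0.32 and 0.33. Apod, a carrier of small lipids, rose in females by 0.86, from 6.26 to 12.1 RPKM, and was at 0.23 in males (adjusted p = 0.134). The 1 lower gene in males was Abhd5, a coactivator of triglyceride lipase, at -0.21.

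The lists were also read over the shorter ageing steps. From 3 to 12 months 4 of 47 were higher in females, 8.51% where 2.94% of all genes were called. These were Apod, Ppard, Acsl1 and Npc1, which lost their calls without any of 4, 7, 12 and 18 single libraries (adjusted p up to 0.0866, 0.118, 0.123 and 0.157). In males 13 were higher in that step, led by Npc2 and Pltp, and 1, Vldlr, was lower, together 29.8% where 13.9% of all genes were called. Of these male calls, Ppard, Lipe and Lpcat3 were lost without any of 20, 11 and 6 single libraries, and Scarb1, Scd1 and Abca3 without any of 4, 4 and 3 (adjusted p up to 0.144). From 12 to 24 months 4 were higher in females, led by Npc2 and Trem2, 8.51% against 5.44% of all genes. In males 4 were higher, Npc2 (0.46) and Trem2 (0.47) among them, and 2 were lower, Abcg4 (-0.34) and Mgll (-0.25), together 12.8% against 9.73%. The Trem2 call there was lost without male 12-month library 1 (adjusted p = 0.053) and the Mgll call without any of 20 single libraries (adjusted p up to 0.174). Between the sexes 0 of 47 were called at any age or for the difference in ageing effect in limma, with 5, 3 and 11 at an unadjusted p under 0.05 at 3, 12 and 24 months and 7 for the difference, and voom called 0, 1, 3 and 1.

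In the disease models few genes of these lists passed. With TauP301L 2 of 42 were higher and 0 lower, Npc2 (0.52, limma, adjusted p = 0.0162) and Trem2 (0.43, adjusted p = 0.0492), 4.76% where 1.25% of all genes were called. The Npc2 call was lost without TauP301L 3 (adjusted p = 0.0532), and the Trem2 call without any single library but GFP 5 (adjusted p = 0.0698 to 0.124) and with the replicate block (adjusted p = 0.0837). With APP/PS1 0 of 48 were called, 12 at an unadjusted p under 0.05 and 4 by voom, with Trem2 at 0.47 (adjusted p = 0.0588) and Npc2 at 0.30 (adjusted p = 0.103). For the amyloid minus tau effect 0 of 46 were called, 6 at an unadjusted p under 0.05 and 2 by voom.

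After LPS 2 of 45 were higher in pulldowns, Apod (1.21, limma, adjusted p = 0.0082) and the receptor chaperone gene Lrpap1 (0.60, adjusted p = 0.0437), 4.44% where 12.3% of all genes were called. The Lrpap1 call was lost without saline pulldown 3 or 4 or any LPS pulldown (adjusted p = 0.0613 to 0.171), with scaling (adjusted p = 0.0645), voom (adjusted p = 0.0581) and the replicate block (adjusted p = 0.133). After Poly(I:C) 2 of 45 were higher, Npc2 (1.10, adjusted p = 0.00295) and Apod (1.10, adjusted p = 0.00878), 4.44% where 6.5% of all genes were called. Both were lost with the microglia covariate (adjusted p = 0.491 and 0.668). In sorted cells after LPS 0 of 36 were called, 2 at an unadjusted p under 0.05 and 0 by voom, for the difference between the methods 0 of 44, with 5 and 0, and for the LPS minus Poly(I:C) effect 0 of 44, with 1 and 0.

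Between isolations many genes of the lists differed, as did many genes at large. Against input 23 of 39 were higher in pulldown and 9 lower, 82.1% where 67.3% of all genes were called. Trem2 was higher by 3.12 and Abca9, a transporter of the ABCA family, by 2.54, while the carriers Clu and Apod were lower, at -1.67 and -1.69. Against sorted cells 12 of 43 were higher in pulldown and 9 lower, 48.8% where 43.1% of all genes were called, with Clu at 2.62 and Vldlr at 2.57 and with Abca9 at -2.52 and Mylip, which encodes a ubiquitin ligase, at -2.07. In the input comparison the median over these lists was 0.47 beside 0.41 over all genes, and against sorted cells it was 0.08 beside 0.25.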

How the data were processed

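The authors deposited 1 table of RPKM values for 43346 genes in 70 libraries, for which the submitters' processing notes name TopHat2, featureCounts, CASAVA and the build mm10. Versions, strand setting and filters are not given in the sources used here. Every value column matched a sample, and 37 mitochondrial genes were at 0 throughout. RPKM moved in steps of whole reads, so reads were recovered, whole for 100% of values within 0.01 read.

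The log2 of RPKM plus a pseudocount of 1 RPKM was fitted in R 4.3.3 by limma 3.58.1 with a trended eBayes variance, for genes whose mean in the fit reached 1 RPKM. Adjustment was by Benjamini-Hochberg over all genes tested, and an adjusted p under 0.05 made a call. Fits held only the groups compared, except that the 6 ageing groups shared a fit, as did the groups of each difference of effects. The steps were tested on simulated data. Python 3.11.15 with matplotlib 3.10.9, scipy 1.17.1, numpy 2.4.6 and pandas 2.3.3 made the tables and figures.

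Named were the 9 members, counts and up to 2 called genes by smallest p of each of 7 pathway lists, the 10 genes most like Apoe without predicted genes, and a few pathway genes in addition, chosen after their values were seen. The values of 1 pathway gene are not reported here. The members and lists were chosen with earlier results of these data known, so no list's direction is independent support. Each library was taken as 1 animal, except that input and saline pulldowns share title numbers and may share mice, and the p-values measure only the spread between these samples. Libraries were not paired by replicate number in the reported fits, since in no comparison was every same-numbered pair's correlation of deviations over 0.1. That check cannot show that same-numbered libraries came from separate mice. Intervals and the limit of 3 reads cover sampling error only. Alternatives were a pseudocount of 0.1 RPKM, no filter or a mean of at least 5 RPKM, and a fold of at least 2 in RPKM + 1. Others were median-of-ratios scaling, voom on the recovered reads, a replicate block, other groups in the fit, weights per isolation method and each library left out. Covariates for microglia or astrocyte markers and leaving out saline pulldowns 3 and 4 together were chosen after seeing the data.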

Additional observations from a re-analysis of the deposited data

Results flagged for a closer look

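Apoe gave -0.96 and Abca1 -0.39 for the amyloid minus the tau effect on the log2 scale, and both passed limma's test of that difference (adjusted p = 0.0247 and 0.0301). Abcg1 in replicate 2 of the 24-month females stood apart at 8.24 RPKM, above the other 3. Soat1 in APP/PS1 replicate 4 stood apart at 2.5 RPKM, below the other 4. These were 2 samples far from the rest in 70 groups of member values tested, where chance gives about 1 in 20.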

How the results depend on the processing

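Of 125 member results, 38 were called, and 21 of these stayed called under every alternative that tested them, other than the fold limit. For 8 of the 21 the filter at a mean of 5 RPKM left no test. All 125 kept their call with a pseudocount of 0.1 RPKM. Causes of the changes below were not tested, except that a mean of at least 5 RPKM leaves fewer members to test.

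A fold of at least 2 was taken in RPKM + 1. Low genes such as Lpl and Plin2 after LPS thus missed it at ratios of means above 2. Members called then fell to 1 of 4 for pulldown against input and 0 of 2 for LPS in pulldowns. They fell to 1 of 2 for APP/PS1 and for TauP301L, and to 0 of 2 for amyloid minus tau. In females they fell to 0 of 1 from 3 to 12 months, and to 1 of 4 from 12 to 24 and from 3 to 24 months. In males they fell to 0 of 2 from 3 to 12 months, 1 of 3 from 12 to 24 months and 1 of 6 from 3 to 24 months. Between the sexes at 24 months they fell to 0 of 2. With a mean of at least 5 RPKM they were 1 for pulldown against input, 0 for LPS, 1 for APP/PS1, 2 for females from 12 to 24 and from 3 to 24 months, 1 between the sexes at 24 months and 1 in place of 0 for the difference in ageing effect. With no filter they were 0 for LPS, 0 for amyloid minus tau and 1 for males from 3 to 12 months. Scaling and voom each gave 1 for pulldown against input, 4 in place of 2 for TauP301L, 1 for males from 3 to 12 months and 2 in place of 0 for the difference in ageing effect. The shared fit of the LPS study gave 0 for LPS, and so did leaving out saline pulldowns 3 and 4 together. A fit of only the groups compared gave 1 for males from 3 to 12 months.

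The replicate numbers were not seen to pair the libraries, with correlations of -0.554 to -0.24 for LPS in pulldowns. As a replicate block they gave 2 in place of 4 for pulldown against sorted cells, 0 for LPS, 0 for amyloid minus tau and 1 for males from 3 to 12 months, and in all 9 of 125 results lost their call.

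The microglia covariate gave 2 in place of 0 for LPS minus Poly(I:C), 2 of 4 for females from 12 to 24 months, 0 of 2 for males from 3 to 12 months, 3 of 6 from 3 to 24 months and 1 in place of 0 for the difference in ageing effect. It turned Lrp1 in males from 3 to 24 months to -0.029 and Abca9 there to -0.04. The astrocyte covariate gave 1 for amyloid minus tau and 1 for males from 3 to 12 months.

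Leaving out 1 library at a time gave 4 to 5 members for pulldown against input, 3 to 5 against sorted cells, 0 to 2 for LPS, 2 to 4 for TauP301L, 0 to 2 for amyloid minus tau, 3 to 4 for females from 12 to 24 months, 1 to 4 for males from 3 to 12 months, 5 to 6 from 3 to 24 months and 0 to 2 for the difference in ageing effect. Apoc1 and Nr1h3 lay below the filter of 1 RPKM in every filtered fit, and their values rest on at most 63 and 139 reads in a library.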
